A study of Homo sapiens with 8 samples.

Results

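Iron storage, uptake and export were followed through 10 genes that move iron into, through and out of a human cell: FTH1, FTL, TFRC, SLC40A1, SLC11A2, ACO1, IREB2, NCOA4, STEAP3 and HAMP. They were chosen by name, for their function, and all 10 were found among the 59050 gene symbols of the count tables. Their RNA was measured by bulk RNA sequencing in xenograft tumours of H2122 cells, a human line established from a lung cancer, which were cultured before they were grown in a host. The study compared 4 tumours of the parental line, labelled WT, with 4 tumours of H2122 cells carrying a SMARCA4 knockout, and all 8 are labelled as treated with vehicle. SMARCA4 encodes BRG1, an ATPase that drives the SWI/SNF chromatin remodelling complexes. How the knockout was made, whether the knockout cells are 1 clone, and the strain, sex and age of the hosts are not given in the sources used here. The labels number the tumours as replicates without saying that each came from a separate animal, so p-values measure the spread between these tumours.

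Iron bound to transferrin enters cells through the transferrin receptor, is reduced in the endosome by STEAP3 and crosses the endosomal membrane through DMT1, the product of SLC11A2. Surplus iron is stored inside ferritin, a shell of heavy (FTH1) and light (FTL) subunits, and NCOA4 delivers ferritin to the lysosome when iron is needed. Ferroportin, encoded by SLC40A1, is the known exporter of ferrous iron, and the hormone hepcidin, encoded by HAMP, blocks and removes it. The iron-regulatory proteins IRP1 (ACO1) and IRP2 (IREB2) bind hairpins called iron-responsive elements when iron is scarce. Binding near the 5′ end of an mRNA blocks its translation, and binding in the 3′ untranslated region of TFRC protects that mRNA from decay. Part of this control acts on translation and on protein, which counts of RNA do not measure.

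The hairpins below are those that a strict search found, in 4 of the 10 mRNAs. They are of the kind that the iron-regulatory proteins read. Each was read from the GENCODE 29 transcripts (GRCh38), on the strand of the transcript and 5′ to 3′, and the capitals mark the bulged C and the 6 bases of the loop.
FTH1, 5′ untranslated region, chr11:61967575-61967601, minus strand: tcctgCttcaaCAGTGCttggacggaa
FTL, 5′ untranslated region, chr19:48965336-48965362, plus strand: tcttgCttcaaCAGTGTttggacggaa
SLC40A1, 5′ untranslated region, chr2:189580662-189580688, minus strand: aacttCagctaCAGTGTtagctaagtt
TFRC, 3′ untranslated region, chr3:196050464-196050490, minus strand: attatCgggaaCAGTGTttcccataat
TFRC, 3′ untranslated region, chr3:196050511-196050537, minus strand: tgtatCggagaCAGTGAtctccatatg
TFRC, 3′ untranslated region, chr3:196050576-196050602, minus strand: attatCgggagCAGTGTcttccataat
TFRC, 3′ untranslated region, chr3:196050980-196051006, minus strand: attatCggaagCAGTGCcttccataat
The search, on the transcript strand only, asked for a C, any 5 bases, the letters CAGTG and any base, followed by 5 bases that pair with the first 5, G-T pairs allowed. A match stood in the 5′ untranslated region of 28 of 18448 genes (0.152%) and in the 3′ untranslated region of 127 of 19004 genes (0.668%). Of the 10 iron genes, 3 matched at the 5′ end and 1 at the 3′ end. The elements of FTH1 and FTL share the same 5 paired bases on each side of the loop, while that of SLC40A1 has another stem sequence and the 4 of TFRC differ among themselves. A match is a description of the letters and not a measurement of binding. All 5 pairs were required, so the search misses elements with an unpaired base or another bulge in that stem. EPAS1, named below among mRNAs known to carry such an element, had no match. A gene without a match may therefore still carry an element, and the number found in TFRC may be too low.

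The labels were checked first on the targeted gene. SMARCA4 had 4256, 4684, 4444 and 5534 counts in the parental tumours and 633, 537, 478 and 666 in the knockout tumours. Its level in the knockout tumours was 12.4% of the parental level, a log2 difference of -3.02 (SE 0.117; adjusted p = 1.45e-07, edgeR). Gene counts summed to 19785922 to 23191698 per parental tumour and 20662882 to 21981123 per knockout tumour. The mitochondrially encoded genes took 7.08% ± 1.99 of the counts in the parental and 9.73% ± 0.985 in the knockout tumours (SD, n = 4 each; exact two-sided permutation test, p = 0.0571, adjusted p = 0.229 over 4 measures). Of 9 epithelial and lung markers, EPCAM, CDH1 and the keratins KRT7, KRT8, KRT18 and KRT19 were abundant in all 8 tumours, and KRT7 (61.2% of the parental level, edgeR adjusted p = 0.000333) and KRT19 (49.6%, adjusted p = 8.49e-05) fell. The lung markers were at or near the floor: NKX2-1 had 0 counts in each tumour, SFTPB 2 to 8 and NAPSA 16 to 26, so the labelled lung origin could not be seen in them. Whether reads of the mouse or other host were removed is not given in the sources used here.

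Levels below are counts scaled to a common library total (CPM, a usual unit of RNA sequencing) after scaling, given tumour by tumour in the order of the replicate numbers, with means ± SD over n = 4 tumours. A gene is said to have risen or fallen where edgeR's quasi-likelihood test gave an adjusted p under 0.05 over the 16219 genes that passed the filter on low counts. Fold changes are knockout over parental throughout. Of the 10 iron genes 9 passed that filter, and 3 of the 9 changed (33.3%), against 27.0% of all genes tested. ACO1 rose (13.0% of all genes tested did) and FTL and SLC40A1 fell (14.1% of all genes tested did). The groups did not overlap for FTH1, SLC40A1 and ACO1, as for 29.3% of all genes tested. The median log2 fold change of the 9 genes was -0.09, against 0.00 over all genes tested, and 8 of the 9 had a negative value, of which the signs of TFRC, SLC11A2 and IREB2 changed under some settings. The share that changed was thus near that of the whole transcriptome, and the results lie in the individual genes.

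**Figure D1:**
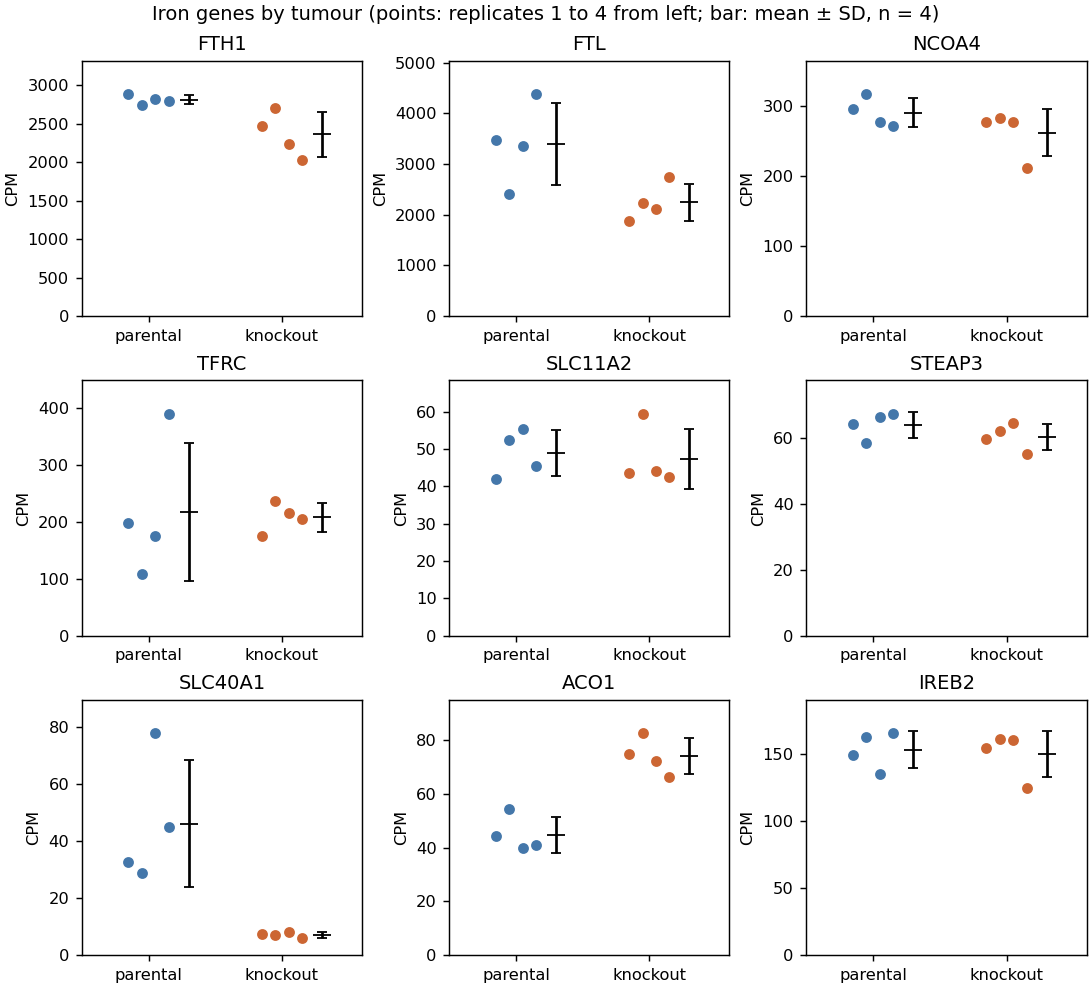
Level of the tested iron genes in every tumour, in CPM on linear axes that start at 0, with 1 point per tumour and the mean ± SD of each group (n = 4) beside the points. SLC40A1 lies at 28.9 to 77.9 in the parental tumours and 5.79 to 7.93 in the knockout tumours, and ACO1 is the 1 gene whose knockout points lie above all parental points.

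Ferritin RNA was among the most abundant in these tumours. FTL ranked 18th and FTH1 20th by mean CPM among all genes in the tables, and NCOA4 ranked 526th. Per kilobase of exon, FTL stood at 3873 ± 919 CPM in the parental and 2555 ± 423 CPM in the knockout tumours. FTH1 stood at 1384 ± 29.2 and 1162 ± 147 CPM per kilobase. Both ferritin subunits together took 0.621%, 0.518%, 0.631% and 0.727% of all gene counts in the parental tumours and 0.423%, 0.491%, 0.432% and 0.481% in the knockout tumours. Every knockout tumour therefore gave ferritin a smaller share than any parental tumour.

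FTL, the light subunit that helps iron to mineralise inside the shell, fell. It is a short gene on chromosome 19 (48965301 to 48966878, plus strand), and its level was 3478, 2401, 3350 and 4373 CPM in the parental tumours and 1871, 2240, 2112 and 2752 CPM in the knockout tumours. Parental replicate 2 lay below knockout replicate 4, so the groups overlapped, and the other 3 parental tumours lay above all 4 knockout tumours. The mean went from 3400 ± 807 to 2244 ± 371 CPM, 66.0% of the parental level, a log2 fold change of -0.60 (SE 0.171, 95% confidence interval -0.98 to -0.22, edgeR adjusted p = 0.0230). The call was lost when parental replicate 1 (adjusted p = 0.05003) or 4 (0.0506), or knockout replicate 1 (0.0721), 2 (0.0555) or 3 (0.0648) was left out, with log2 fold changes between -0.74 and -0.46 over all 8 omissions.

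FTH1, the heavy subunit that carries the ferroxidase site, was also lower in every knockout tumour but did not pass the test. It lies on chromosome 11 (61959718 to 61967660, minus strand). Its level was 2881, 2737, 2819 and 2799 CPM in the parental tumours and 2475, 2709, 2231 and 2023 CPM in the knockout tumours. The parental values were tightly grouped (2809 ± 59.3 CPM) and the knockout values were spread out (2360 ± 298 CPM), with knockout replicate 2 just under the lowest parental tumour. The log2 fold change was -0.25 (SE 0.0986, interval -0.47 to -0.03, edgeR adjusted p = 0.0825). DESeq2 called it (-0.27, adjusted p = 0.0498), and so did edgeR without knockout replicate 2 (-0.32, adjusted p = 0.0376).

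The ferritin genes have many processed pseudogenes to which reads can be assigned. The 25 rows named FTH1P held 2012 counts in all 8 libraries, between 0.356% and 0.636% of the counts of FTH1 and its pseudogenes together. FTH1P16 (907 counts), FTH1P10 (424) and FTH1P20 (220) led them. The 16 rows named FTLP held 160 counts in all, or 0.0179% to 0.0566%, most of them in FTLP14 (91 counts), FTLP3 (53) and FTLP12 (12). Adding these counts to their parent genes left the log2 fold changes of FTH1 and FTL at -0.25 and -0.60. Reads that aligned to more than 1 place stand apart from the gene counts, so this sum leaves them out. They were 6.10%, 8.11%, 5.76% and 4.52% of reads in the parental tumours and 5.48% to 5.63% in the knockout tumours. Their part in the ferritin values was not tested. FTH1 also shares 1267 exonic bases with BEST1 on the opposite strand, and the strand setting is not stated. Reads set aside as ambiguous between genes were 3.98% to 4.31% of reads per tumour. If strand was ignored, FTH1 may have lost counts in the shared bases, which was not tested. BEST1 held 392 to 638 counts per tumour, its log2 fold change was -0.21 (edgeR adjusted p = 0.246), and its part in the FTH1 value was not tested.

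The balance of the ferritin subunits varied from tumour to tumour. The ratio of FTH1 to FTL counts was 0.828, 1.14, 0.842 and 0.640 in the parental and 1.32, 1.21, 1.06 and 0.735 in the knockout tumours. Its mean was 0.862 ± 0.207 and 1.08 ± 0.255, and the groups overlapped.

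NCOA4, the receptor that takes ferritin to the lysosome, was at similar values in both groups. It lies on chromosome 10 (46005088 to 46030714, minus strand). Its level was 296, 317, 278 and 272 CPM in the parental tumours and 277, 283, 278 and 211 CPM in the knockout tumours. Only knockout replicate 4 lay away from the rest. The log2 fold change of -0.15 (SE 0.106, interval -0.38 to 0.08, edgeR adjusted p = 0.336) did not pass the test.

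Among the uptake genes, TFRC, SLC11A2 and STEAP3 did not pass the test. TFRC, the transferrin receptor (chromosome 3, 196027183 to 196082189, minus strand), was 198, 107, 175 and 390 CPM in the parental tumours and 175, 237, 216 and 204 CPM in the knockout tumours. The parental values ran from below to above the whole knockout range, and the knockout values lay close together (217 ± 121 and 208 ± 26.0 CPM). Its log2 fold change of -0.07 had an SE of 0.300 (edgeR adjusted p = 0.898), and the interval of -0.73 to 0.59 leaves room for a change of moderate size in either direction. The sign was not settled: without parental replicate 4, the highest, the log2 fold change was 0.37 (adjusted p = 0.179), and it was also above 0 in several fits on all 8 tumours, limma-voom among them (0.082).

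SLC11A2 encodes DMT1, the divalent metal transporter of the endosome, and lies on chromosome 12 (50979401 to 51028566, minus strand). Its level was 42.0, 52.4, 55.4 and 45.5 CPM in the parental tumours and 43.5, 59.5, 44.1 and 42.4 CPM in the knockout tumours. The groups covered the same range, apart from knockout replicate 2, and the log2 fold change was -0.04 (SE 0.130, interval -0.33 to 0.24, edgeR adjusted p = 0.839). STEAP3, the endosomal ferric reductase (chromosome 2, 119223831 to 119265652, plus strand), varied least of the 3. It was 64.2, 58.6, 66.4 and 67.4 CPM in the parental and 59.8, 62.1, 64.6 and 55.3 CPM in the knockout tumours. Its log2 fold change was -0.09 (SE 0.0833, interval -0.27 to 0.10, edgeR adjusted p = 0.489), so a change beyond these bounds was not seen. An antisense gene that shares 500 exonic bases with STEAP3, STEAP3-AS1, held 2 to 10 counts per tumour.

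SLC40A1 fell furthest of the 9 genes tested. Ferroportin, its product, carries ferrous iron out of the cell, and the gene lies on chromosome 2 (189560579 to 189583758, minus strand). It had 628, 591, 1745 and 1055 counts in the parental tumours and 154, 147, 170 and 124 in the knockout tumours. In CPM these were 32.5, 28.9, 77.9 and 44.9 against 7.20, 7.17, 7.93 and 5.79. All 4 knockout tumours lay close together and well under the lowest parental tumour, while parental replicate 3 stood above the other parental tumours. The mean went from 46.0 ± 22.3 to 7.02 ± 0.895 CPM, which is 6.56-fold lower by the fit (log2 fold change -2.71, SE 0.289, interval -3.35 to -2.08, edgeR adjusted p = 4.88e-05). Without parental replicate 3 the log2 fold change was -2.34 (adjusted p = 1.05e-05).

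Macrophages are known to express ferroportin, so leukocyte and macrophage markers were read in the same libraries. All 10 markers of the list had counts, and their summed level was 12.8, 73.4, 62.2 and 7.36 CPM in the parental tumours and 19.2, 29.7, 17.9 and 12.5 CPM in the knockout tumours. Parental replicates 2 and 3 were thus the highest of the 8 and parental replicates 1 and 4 among the lowest 3. Of the 6 markers that passed the filter 5 had a negative log2 fold change, with a median of -0.78, and the groups overlapped for each of the 6. Markers under the filter were lower in the knockout tumours by their summed counts. The parental and knockout sums were 111 and 25 for CD163, 85 and 16 for AIF1 and 82 and 23 for MRC1. Most of these parental counts came from replicates 2 and 3. CD68 held 38 and 29, with 10, 11, 7 and 10 in parental replicates 1 to 4. The mean log2 CPM of the 6 did not differ between groups beyond its spread (1.20 ± 1.66 and 1.08 ± 0.427, exact two-sided permutation test, p = 0.886, adjusted p = 0.886 over 4 measures). In parental replicates 1 and 4, with low marker sums, SLC40A1 was 32.5 and 44.9 CPM, and in the knockout tumours it was 5.79 to 7.93 CPM. A fit without parental replicates 2 and 3 was added after these marker values were seen. The fit leaves only parental replicates 1 and 4 in that group, picked by those values, so it does not test the part of leukocytes. It gave SLC40A1 a log2 fold change of -2.47 (edgeR adjusted p = 4.14e-06). The same 3 iron genes remained called, with FTL at -0.82 (adjusted p = 0.00284) and ACO1 at 0.79 (adjusted p = 0.000650). In bulk tissue, fewer cells of a type and less RNA per cell cannot be told apart. The tumours also grew in a host, and whether host reads were removed is not given. Counts under these human symbols may therefore not measure host leukocytes, and the part of leukocytes in the SLC40A1 values was not tested.

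Among markers of other cell types, 1 of 4 tested fibroblast markers and 1 of 2 tested endothelial markers changed, against 27.0% of all genes tested. None of the 3 tested hepatocyte markers did, and the summed level of each list overlapped between the groups. The 6 fibroblast markers summed to 179 to 607 CPM in the parental and 343 to 603 CPM in the knockout tumours, most of it COL1A1. LUM, a matrix proteoglycan, rose from 0.374 ± 0.236 to 12.4 ± 2.50 CPM (log2 5.00, edgeR adjusted p = 1.98e-06). COL1A1 (log2 0.34), COL1A2 (0.60) and COL3A1 (-0.16) were not called (adjusted p = 0.456, 0.385 and 0.853). Under the filter, DCN had 9 and 24 counts and PDGFRB 27 and 15 in the parental and knockout tumours. The 6 endothelial markers summed to 7.35 to 18.0 and 8.68 to 15.3 CPM. VWF fell from 1.97 ± 0.806 to 0.378 ± 0.0709 CPM (log2 -2.37, adjusted p = 0.000410), and PECAM1 was not called (0.30, adjusted p = 0.504). Under the filter, CDH5 had 36 counts in the parental and 0 in the knockout tumours, KDR 38 and 9, TEK 28 and 24 and CLDN5 2 and 4. The 7 hepatocyte markers summed to 707 to 1415 and 589 to 889 CPM, nearly all of it SERPINA1, with TTR at 0. The same limit on host reads holds for these markers, and the part of these cell types in the SLC40A1 values was not tested.

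**Figure D2:**
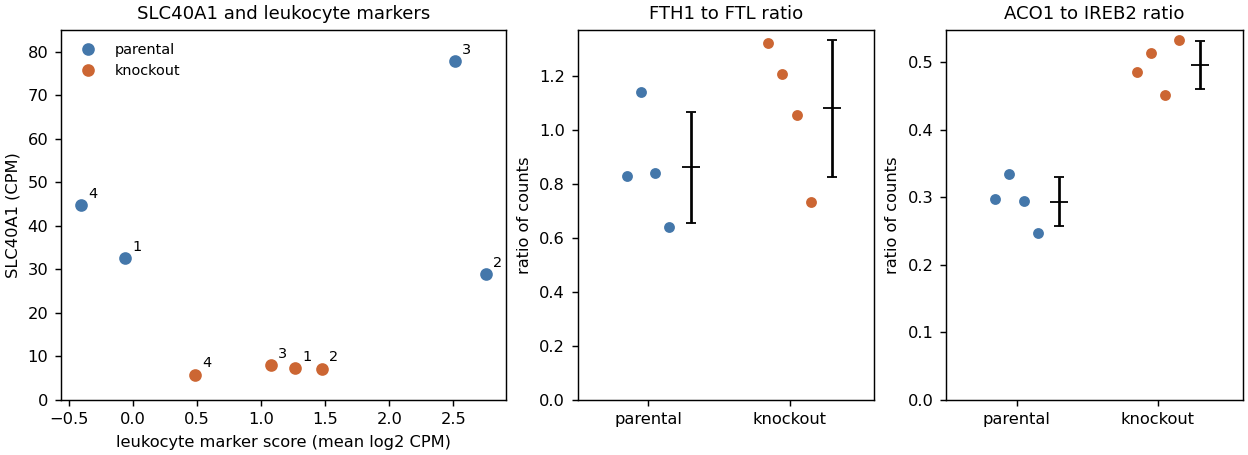
SLC40A1 level in CPM against the mean log2 CPM of 6 leukocyte and macrophage markers (replicate numbers beside the points), and the FTH1 to FTL and ACO1 to IREB2 ratios of counts on linear axes with the mean ± SD of each group (n = 4). The knockout tumours lie between 5.79 and 7.93 CPM of SLC40A1 at marker levels within the parental range, and the ACO1 to IREB2 ratio separates the groups (0.247 to 0.335 and 0.452 to 0.533) while the FTH1 to FTL ratio does not.

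HAMP, whose product hepcidin closes ferroportin, was close to undetected. It lies on chromosome 19 (35280716 to 35285143, plus strand), and it had 0, 2, 0 and 1 counts in the parental and 0, 0, 1 and 0 counts in the knockout tumours. Both group sums are at or under the 3 counts that a count of 0 allows, so no fold is given, and no difference was detectable at this depth (exact two-sided permutation test on CPM, p = 0.714, adjusted p = 0.886 over 4 measures).

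The ratio of exporter to importer RNA was lower in every knockout tumour than in any parental tumour. The ratio of SLC40A1 to TFRC counts was 0.164, 0.269, 0.446 and 0.115 in the parental and 0.0412, 0.0302, 0.0368 and 0.0284 in the knockout tumours. The importer's RNA relative to that of ferritin heavy chain did not separate the groups. The ratio of TFRC to FTH1 was 0.0687, 0.0392, 0.0620 and 0.139 in the parental and 0.0706, 0.0875, 0.0966 and 0.101 in the knockout tumours. All knockout values lay within the parental range.

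ACO1 was the 1 gene of the 9 that rose. It encodes IRP1, a protein that is a cytosolic aconitase when it holds an iron-sulphur cluster and an RNA-binding regulator when it does not, and it lies on chromosome 9 (32384603 to 32454769, plus strand). Its level was 44.3, 54.3, 39.7 and 40.8 CPM in the parental tumours and 74.8, 82.6, 72.2 and 66.4 CPM in the knockout tumours. Every knockout tumour lay above every parental tumour, with spreads of like size in both groups (44.8 ± 6.65 and 74.0 ± 6.71 CPM). The fold change was 1.65 (log2 0.72, SE 0.113, interval 0.48 to 0.97, edgeR adjusted p = 0.000704).

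IREB2, the paralogous IRP2, which is controlled by its degradation when iron is plentiful, did not pass the test. It lies on chromosome 15 (78437431 to 78501456, plus strand). Its level was 149, 162, 135 and 165 CPM in the parental and 154, 161, 160 and 125 CPM in the knockout tumours, so the ranges were nearly the same. The log2 fold change was -0.03 (SE 0.104, interval -0.26 to 0.20, edgeR adjusted p = 0.871). The ratio of ACO1 to IREB2 counts was 0.297, 0.335, 0.294 and 0.247 in the parental and 0.485, 0.513, 0.452 and 0.533 in the knockout tumours. The mean ratio was 0.293 ± 0.0361 and 0.496 ± 0.0356, and the groups did not overlap.

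Per kilobase of exon, the order of the parental levels was FTL, FTH1, NCOA4 (71.3 ± 4.98 CPM per kilobase), TFRC (27.6 ± 15.4), IREB2 (14.1 ± 1.28), STEAP3 (14.1 ± 0.866), SLC40A1 (10.6 ± 5.16), ACO1 (5.93 ± 0.880), SLC11A2 (4.81 ± 0.607) and HAMP. From TFRC down to SLC11A2 the mean ± SD interval of each gene overlapped that of its neighbour, so the order of neighbours is not fixed. The intervals of IREB2 and STEAP3 lay above those of ACO1 and SLC11A2. In the knockout tumours ACO1 stood at 9.79 ± 0.888 and SLC40A1 at 1.62 ± 0.207 CPM per kilobase, so that the mean of SLC40A1 went from above those of ACO1 and SLC11A2 (4.67 ± 0.798) to below them. These levels use the union of annotated exons as the length and depend on that choice.

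**Figure D3:**
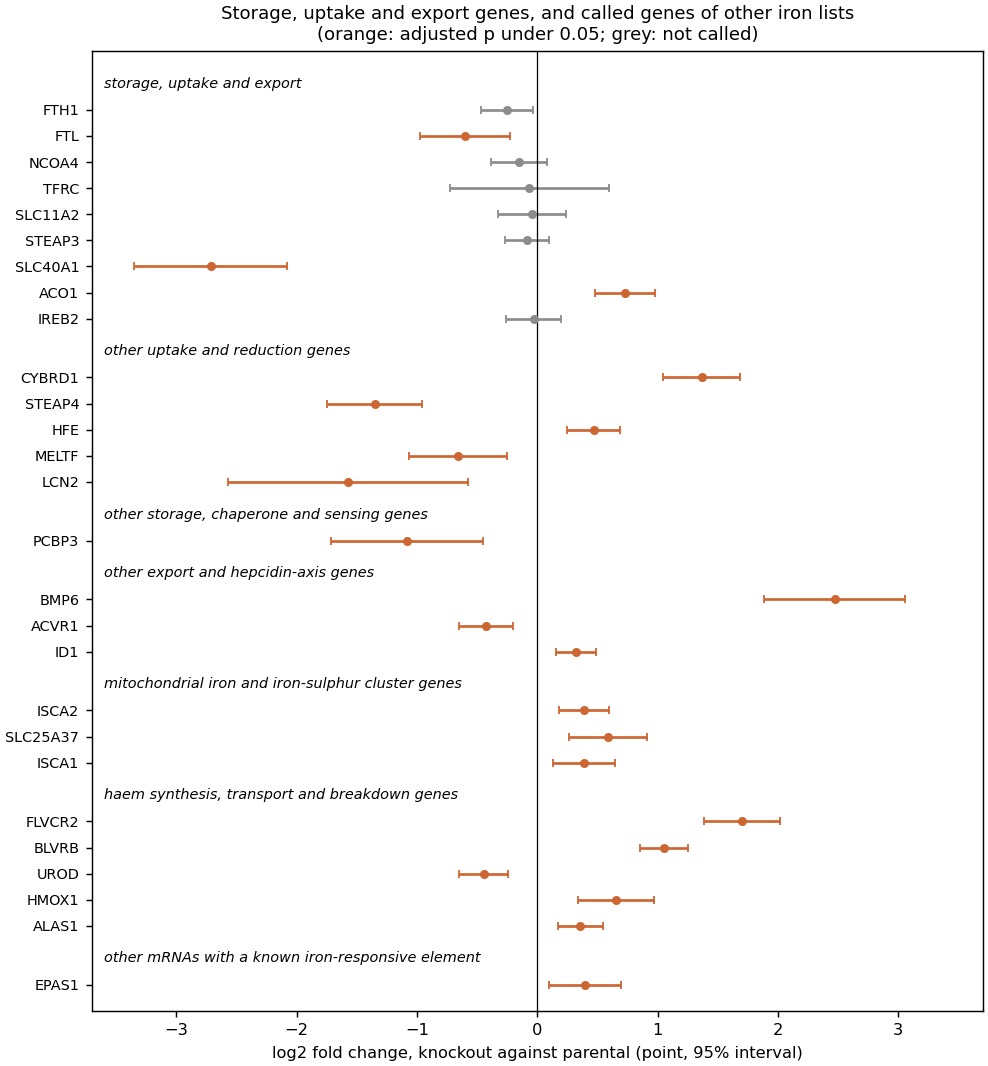
Log2 fold change (knockout over parental) with its 95% confidence interval for the 9 tested genes of iron storage, uptake and export, and for the called genes of the other iron lists that are named. SLC40A1 at -2.71 is the lowest point shown, and BMP6 at 2.47 is the highest.

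The genes whose pattern over the 8 tumours was most like each called gene were found by the mean absolute difference of centred log2 CPM. For FTL these were ETFB (difference 0.0728, log2 fold change -0.49) and FADS2 (0.0870, -0.67). For SLC40A1 they were CGNL1 (0.149, -2.96) and C4BPB (0.174, -2.61), and both shared its high value in parental replicate 3. For ACO1 they were CPEB2 (0.0595, 0.65) and FA2H (0.0681, 0.59). Such likeness over 8 tumours of 2 groups describes a shared pattern and nothing more.

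The other genes of iron handling were taken from lists by function, 102 genes in all, of which 90 were tested and 24 changed (26.7%, against 27.0% of all genes tested). Of these 16 rose and 8 fell, and the median log2 fold change was 0.06. Without parental replicates 2 and 3, 22 changed.

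Among 17 other uptake and reduction genes, 14 were tested, 4 rose and 3 fell (50% changed, against 27.0% of all genes tested). The median log2 fold change was 0.07. CYBRD1, a plasma membrane ferric reductase, rose from 4.73 ± 0.421 to 12.2 ± 1.85 CPM (log2 1.37, SE 0.146, edgeR adjusted p = 5.00e-05). HFE, the haemochromatosis protein that binds the transferrin receptor, rose from 13.1 ± 0.991 to 18.1 ± 0.837 CPM (log2 0.47, adjusted p = 0.00495). STEAP4, a relative of STEAP3 with metalloreductase activity, fell from 134 ± 22.2 to 52.4 ± 13.1 CPM (log2 -1.35, SE 0.178, adjusted p = 0.000214). The other STEAP family genes of the list did not pass the test (STEAP1 at log2 -0.03, adjusted p = 0.852, and STEAP2 at -0.07, adjusted p = 0.618).

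LCN2, which binds iron-loaded siderophores, fell from 681 ± 466 to 229 ± 141 CPM (log2 -1.57, SE 0.454, edgeR adjusted p = 0.0243), with overlapping groups. Parental replicate 3 alone was at 1371 CPM; without it the log2 fold change was -0.98 (adjusted p = 0.0655), and the call was also lost without knockout replicate 1 (0.0715), 3 (0.0713) or 4 (0.0713). MELTF, melanotransferrin, fell from 4.83 ± 1.07 to 3.06 ± 0.156 CPM (log2 -0.66, adjusted p = 0.0206). That call was lost without parental replicate 3 (0.0563) or knockout replicate 1 (0.0532), 2 (0.0529) or 3 (0.0582). Both were also lost without parental replicates 2 and 3 together (log2 -0.90, adjusted p = 0.102 for LCN2 and -0.52, 0.0718 for MELTF). With the leukocyte marker level as a covariate both were called (-1.46, adjusted p = 0.0109 for LCN2 and -0.65, 0.0181 for MELTF).

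Among 13 other storage, chaperone and sensing genes, 11 were tested and 1 changed (9.09%, against 27.0% of all genes tested). The median log2 fold change was -0.08. PCBP3, of the family of poly(C)-binding proteins to which the iron chaperones belong, fell from 2.85 ± 1.01 to 1.35 ± 0.109 CPM (log2 -1.08, SE 0.288, edgeR adjusted p = 0.0164), with overlapping groups. FTMT, mitochondrial ferritin, was at 0 counts in all 8 tumours. FBXL5, the iron-sensing subunit that marks IRP2 for degradation, was 103 ± 8.53 and 115 ± 8.52 CPM and did not pass the test (adjusted p = 0.208).

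Among 17 other genes of export and of the hepcidin pathway, 14 were tested, 2 rose and 1 fell. That is 21.4%, against 27.0% of all genes tested, and the median log2 fold change was 0.14. BMP6, the ligand known to signal body iron to hepatocytes, rose from 2.28 ± 0.774 to 12.6 ± 3.30 CPM (log2 2.47, SE 0.268, edgeR adjusted p = 5.46e-05). ID1, a target of BMP signalling, rose from 125 ± 6.07 to 156 ± 7.74 CPM (log2 0.32, adjusted p = 0.00967). ID1 was not called without parental replicates 2 and 3 (0.27, adjusted p = 0.0591). The BMP receptor ACVR1 fell from 26.4 ± 1.47 to 19.6 ± 2.09 CPM (log2 -0.43, adjusted p = 0.00935). CP, ceruloplasmin, the ferroxidase that works with ferroportin, was 954 ± 92.6 and 748 ± 177 CPM and did not pass the test (log2 -0.35, adjusted p = 0.118).

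**Figure D4:**
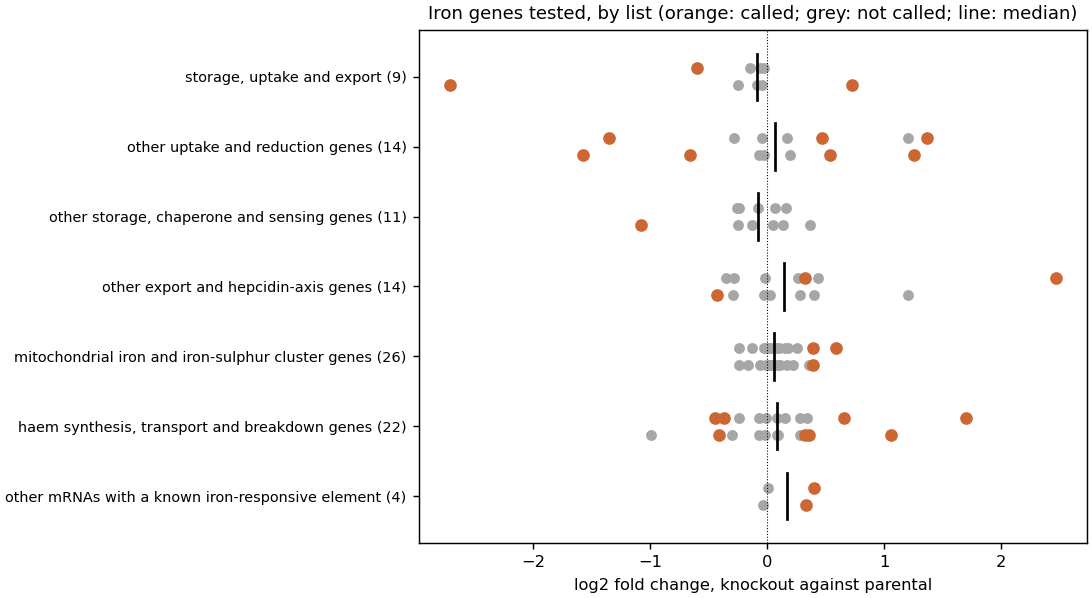
Log2 fold change (knockout over parental) of every tested gene of each iron list, with 1 point per gene, called genes in orange and the median of each list as a line. The medians lie near 0 in every list of other iron genes, between -0.08 and 0.17.

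Of 27 mitochondrial iron and iron-sulphur cluster genes, 26 were tested and 3 changed, all upward (11.5%, against 27.0% of all genes tested). The median log2 fold change was 0.05. The iron importer of the inner mitochondrial membrane, SLC25A37, rose from 253 ± 41.8 to 380 ± 69.3 CPM (log2 0.58, SE 0.148, edgeR adjusted p = 0.0128). The cluster assembly factors ISCA2 (log2 0.39, adjusted p = 0.0102) and ISCA1 (0.39, adjusted p = 0.0282) rose too. The ISCA1 call was lost without parental replicate 2 (0.0571) or 3 (0.0726), without both (0.171), or without knockout replicate 1 (0.0726), 2 (0.0682) or 3 (0.0688). The mitochondrial share of counts given above overlapped between the groups. With the mitochondrially encoded genes left out SLC25A37 was at 0.59, ISCA2 at 0.39 and ISCA1 at 0.39 (edgeR adjusted p = 0.0122, 0.0111 and 0.0313). That fit changes only which genes enter the scaling and the adjustment. The part of mitochondrial content in these values was not tested.

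Of 25 haem genes, 22 were tested, 5 rose and 3 fell (36.4% of those tested, against 27.0% of all genes tested). The median log2 fold change was 0.08. FLVCR2, a transporter first described for haem, rose from 3.81 ± 0.454 to 12.4 ± 1.34 CPM (log2 1.70, SE 0.143, edgeR adjusted p = 9.87e-06). BLVRB, a biliverdin reductase, rose from 59.5 ± 5.74 to 124 ± 7.14 CPM (log2 1.06, adjusted p = 1.15e-05). HMOX1, which opens the haem ring and frees its iron, rose from 14.8 ± 1.90 to 23.3 ± 3.99 CPM (log2 0.65, adjusted p = 0.00580). ALAS1, the first enzyme of haem synthesis, rose (log2 0.36, adjusted p = 0.00927), and UROD, a later enzyme of the same pathway, fell (-0.45, adjusted p = 0.00409). The 8 erythroid markers of a separate list held 26 counts over all 8 libraries, with HBA2 at 0. Whether host reads were counted under these human symbols is not given in the sources used here, so host red cell RNA was not assessed.

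Of 5 other mRNAs known to carry an iron-responsive element, 4 were tested and 2 rose (50% changed, against 27.0% of all genes tested). The median log2 fold change was 0.17. EPAS1, which encodes HIF-2α, rose from 425 ± 55.9 to 560 ± 92.3 CPM (log2 0.40, adjusted p = 0.0491), with overlapping groups. The EPAS1 call was lost with limma-voom (0.0542), with DESeq2's size factors (0.0534) and with the replicate block (0.0960). It was also lost without parental replicate 1 (0.0568), 2 (0.0989), 3 (0.117) or the last pair together (0.259), and without knockout replicate 1 (0.115), 2 (0.130) or 3 (0.122).

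**Figure D5:**
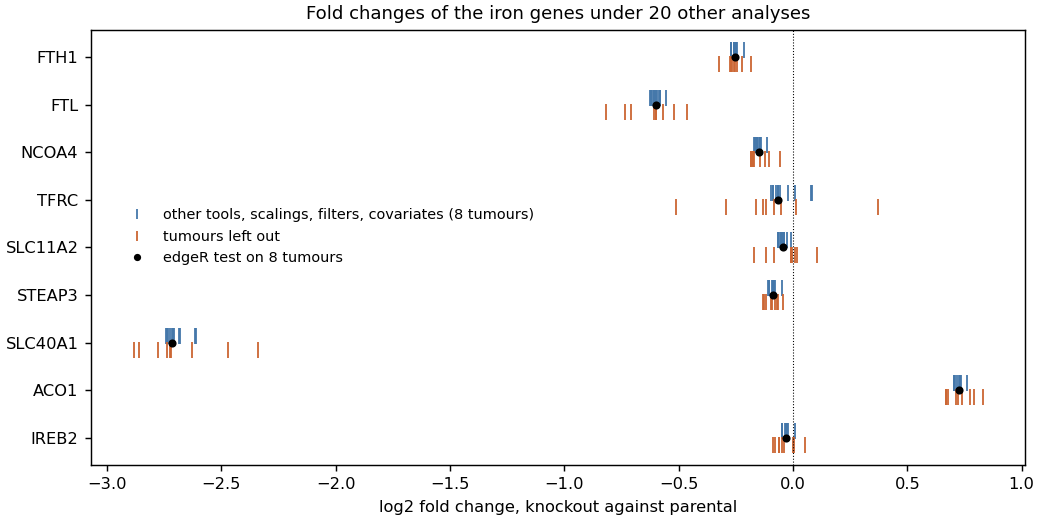
Log2 fold change of each of the 9 tested iron genes on all 8 tumours (black points), with other tools, scalings, filters and covariates (upper ticks) and with tumours left out (lower ticks). SLC40A1 stays between -2.88 and -2.34 and ACO1 between 0.67 and 0.83, while TFRC runs from -0.51 to 0.37.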

How the data were processed

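Gene counts were deposited as 1 table per tumour (TopHat2 2.1.1, HTSeq 0.11.0 and hg38, per the submitters' processing notes). The annotation, strand setting and treatment of host reads are not given in the sources used here. Per the labels' protocols, total RNA was purified on columns and libraries were made with a kit named for DNA. Each table holds 59050 gene rows and 5 summary lines. The summary lines stayed out of all sums, and between 79.1% and 85.2% of reads in the tables were assigned to genes.

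Counts were filtered (filterByExpr, minimum count 10, minimum total 15), scaled by TMM and tested with edgeR 4.0.16 (R 4.3.3; limma 3.58.1; DESeq2 1.42.0), with Benjamini-Hochberg adjustment over 16219 genes. The fitting code was tested on simulated data: of genes changed by 1 or -1 on the log2 scale, 72% and 74% were called, and 96% at 2 or -2 (16008 genes). Only 200 genes were changed in the simulation, a far smaller share than the 27.0% called in the tumours. These rates therefore check the code and do not give the detection rate in these data. The gene groups, lists and the rule for named genes were chosen with earlier results of these data known. That rule named, for each list, up to 5 called genes with the smallest adjusted p, and FBXL5 and CP were added after their values were seen. The result of 1 called gene is not reported here. No library pair agreed within sampling noise, so none was taken as a repeat sequencing of another, and the 8 libraries counted as 8 samples. This does not show that the tumours came from separate animals. Positions come from GENCODE 29 (GRCh38), matched by symbol. Intervals are at the 95% level.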

Additional observations from a re-analysis of the deposited data

Results flagged for a closer look

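In each group of 4 tumours, 1 value was compared with the nearest of the other 3 by Dixon's ratio. Of 68 such sets, 9 (13.2%) had a tumour beyond the 95% critical value, where chance gives about 1 in 20. For the storage, uptake and export genes these were NCOA4 in knockout replicate 4 (211 CPM, the others 277 to 283) and SLC11A2 in knockout replicate 2 (59.5 CPM, the others 42.4 to 44.1). HAMP in knockout replicate 3 was at 0.0467 CPM, which is 1 count where the others had 0.

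Among the other iron genes, STEAP4 was high in parental replicate 3 (167 CPM, the others 121 to 124). LCN2 was high in parental replicate 3 (1371 CPM, the others 345 to 504) and in knockout replicate 2 (440 CPM, the others 151 to 164). Knockout replicate 4 stood apart for ISCA1 (40.4 CPM, the others 44.6 to 45.2), UROD (28.1 CPM, the others 23.9 to 24.5) and EPAS1 (423 CPM, the others 592 to 623). That library also had the highest share of reads outside genes (10.4%) and of mitochondrial counts (10.9%), whose part in these values was not tested.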

How the results depend on the processing

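Of 580 alternative log2 fold changes of single genes, 534 kept their direction and side of the threshold, 33 lost the call, 2 gained it and 11 changed sign. SLC40A1 and ACO1 kept both under all alternatives (adjusted p up to 0.000413 and 0.00327). FTH1 passed the threshold with DESeq2 (-0.27), and its log2 fold change ran from -0.32 to -0.18 with 1 tumour left out. FTL ran from -0.74 to -0.46 there and lost its call in 5 of 8 omissions, each of which has fewer samples. The sign of TFRC changed with limma-voom (0.082), the replicate block (0.080) and a leukocyte covariate (0.0073), and it ran from -0.29 to 0.37 with 1 tumour left out. SLC11A2 ran from -0.17 to 0.020 (0.0084 without knockout replicate 4) and was 0.11 without parental replicates 2 and 3, an alternative chosen after seeing the data. IREB2 ran from -0.087 to 0.053 (0.0065 without parental replicate 4) and was 0.0073 with upper-quartile scaling. TFRC was 0.012 without knockout replicate 1. The cause was not tested.

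Over all alternatives 3501 to 5226 genes were called, with 2 to 4 of the 9 iron genes and 16 to 33 of the others. Replicate numbers are shared between groups, but same-numbered tumours did not deviate together (correlations -0.187 to 0.0863 over 4 pairs). With the replicate block 3871 genes were called, among them FTL, SLC40A1 and ACO1, and 23 of the other iron genes. Depth limits HAMP, at 4 counts in all.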
